A study of Ocimum americanum with 4 samples.

Results

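Cytochrome P450 monooxygenases of leaves of Ocimum americanum var. pilosum, a basil, were followed through 12 h of chilling at 4 °C. The members are unigenes, that is, assembled genes represented by their longest isoform, whose best Swiss-Prot match is described as a cytochrome P450. Matches to the families 86 and 77, reductases and unigenes placed by KEGG in carotenoid biosynthesis were left out. The rule found 147 members among 42816 unigenes (0.343%). Their best matches belong to 28 CYP families, and 1 member, described as a P450 fragment, has no family. The chilling group consists of 2 libraries of leaves from 30-day-old plants of the variety pilosum that were moved to 4 °C for 12 h, and the control group of 2 libraries of leaves from untreated plants of the same age and variety. The labels give growth at 21 °C on agar and then in soil, and name no transgene or mutation in either group. The study calls the libraries of a group biological replicates, but how many plants each one pooled is not given in the sources used here, so p-values measure the spread between these samples. The hour of collection is not given either, and an effect of cold and of 12 h in another chamber cannot be told apart.

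P450 enzymes are haem proteins, mostly held in the membrane of the endoplasmic reticulum, that insert an atom of oxygen from molecular oxygen into a small molecule. They take the electrons for this from NADPH--cytochrome P450 reductase, and some also from cytochrome b5. Plants have large numbers of them. The 71 clan, the group of related families to which most plant P450s belong, works mainly on phenylpropanoids, terpenoids and other specialised compounds, whereas other clans make and inactivate hormones, sterols and fatty acid derivatives. In basils, phenylpropanoids and terpenoids fill the glandular trichomes of the leaf and make up the scent.

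For Ob_33671, a CYP71A8-like member with the largest drop among the members on the log scale used below, the study designed a primer pair. The study lists this unigene among its most down-regulated ones. Its qRT-PCR, on plants of a separate experiment, also found the unigene repressed by chilling. The pair is shown because the results turn on this unigene, which shares its best match with 6 other members.
Forward primer for Ob_33671: cgtcgtgctccagcttctcag
Reverse primer for Ob_33671: ggcaaacaagacactcaaatccac
The primers are written 5′ to 3′, are 21 and 24 bases long and hold 61.9% and 45.8% G and C.

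The deposited values are FPKM, fragments per kilobase of unigene scaled to the mapped reads of the library, so levels of different unigenes are compared per length. Their sum over all unigenes was 773457 and 772255 in the chilling libraries and 875599 and 874864 in the control libraries. The markers of leaf mesophyll, with 26 unigenes for antenna proteins, Rubisco small chain and Rubisco activase, were present at a summed FPKM of 16539 and 16527 after chilling and 46889 and 46754 in the control, and 21 of their 25 tested unigenes were called lower. The 7 unigenes of the glandular trichome list (eugenol, geraniol and linalool synthases and chavicol O-methyltransferase) summed to 434 and 435 FPKM after chilling and 470 and 458 in the control, with 1 called lower. Within this list geraniol synthase had 185 and 186 FPKM after chilling and 116 and 117 in the control, while each of the other enzymes had a lower sum after chilling. Unigenes annotated as floral homeotic proteins, 9 in number, summed to 241 in both chilling libraries and 208 and 200 in the control libraries, with 3 called higher, although the labels name leaves only. No unigene was annotated as a Casparian strip protein, vicilin or legumin. The part of these shifts in the results below was not tested. In such bulk tissue, fewer cells of a type and less RNA per cell cannot be told apart.

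Change was tested with limma on log2(FPKM + 1) over 33036 unigenes, those whose FPKM averaged 1 or more across the libraries. A unigene was called when its adjusted p was at most 0.01 and its mean FPKM differed at least 2-fold, and each log2 change given is the chilling mean minus the control mean of log2(FPKM + 1), a scale that understates the change of low genes. Of the 147 members, 121 were tested and the other 26 had a mean FPKM of 0.978 or less. Past both thresholds were 52 of the 121 (43.0%), against 25.6% of all tested unigenes. Of these, 24 were called higher (19.8% of the members, against 11.9% of all unigenes) and 28 lower (23.1%, against 13.8%). At least 4-fold differences were seen for 16 of those called higher and 13 of those called lower. The matching shares over all unigenes are not given here, so these counts show no trait of the members. A library under 1 FPKM, where ratios are easily large, was present for 13 of the higher and 11 of the lower calls. The share called also depended on level. Among members with a mean FPKM of 2 to 5, 19 of 35 were called (54.3%), against 32.5% of all unigenes in that range, and of those with 20 to 50 FPKM 6 of 18 (33.3%), against 19.6%. The median log2 change was -0.12 over the tested members and -0.004 over all tested unigenes. Chilling and control values did not overlap in 102 of the 121 members (84.3%), among them all 52 called, close to the 81.99% seen over all tested unigenes.

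Rescaling FPKM to TPM, so that every library has the same total, moved the median log2 change of all unigenes to 0.15 and that of the members to 0.04. The members then split into 29 higher and 22 lower (56.9% higher among those called, against 46.2% on FPKM). All 24 higher calls stayed, and the 5 new ones were Ob_31348, Ob_09665, Ob_41432, Ob_16082 and Ob_27917. The 6 calls lost were those of Ob_29438, Ob_27318, Ob_24411, Ob_29440, Ob_17004 and Ob_19509. A fit on 3 libraries made fewer calls. It left 1242 to 1575 higher and 1586 to 1686 lower over all unigenes. Of the members it left 7 higher and 12 lower without chilling replicate 1 and 7 and 12 without chilling replicate 2. It left 6 and 13 without control replicate 1 and 5 and 13 without control replicate 2. Calls of 13 members held in all 4 of these fits, 5 higher (Ob_23853, Ob_25617, Ob_34567, Ob_24932 and Ob_00797) and 8 lower (Ob_33671, Ob_16298, Ob_21574, Ob_32897, Ob_31525, Ob_26369, Ob_23498 and Ob_23692), and those of 27 held in none.

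**Figure D1:**
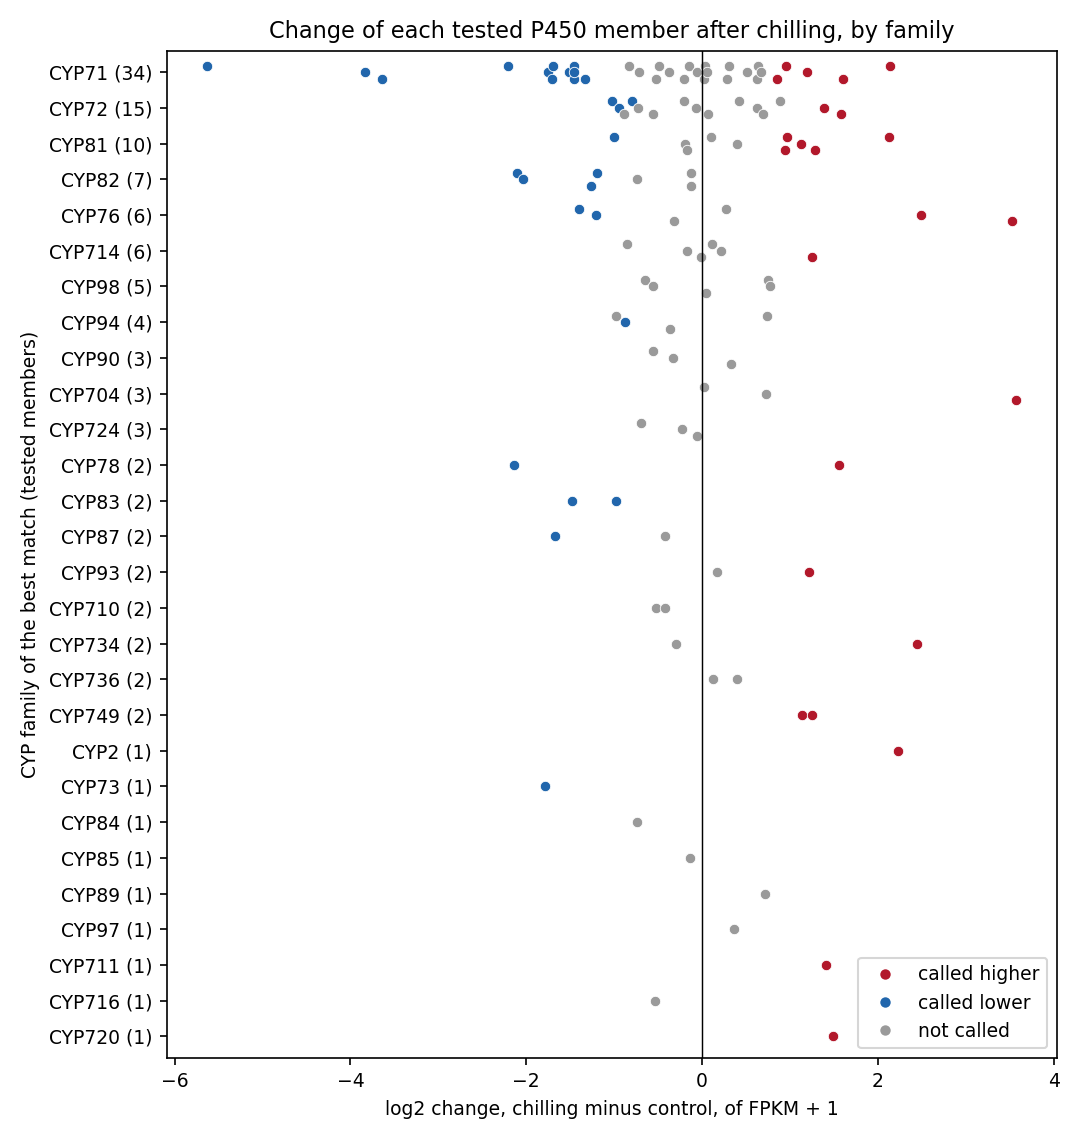
Difference in log2(FPKM + 1), chilling minus control, of the 121 tested members, 1 point each, by the CYP family of the best match, with the number tested in parentheses. CYP71 reaches from the strongest drop of all to rises above 2, CYP82 has no member called higher, and CYP81 has 5 called higher and 1 lower (0 lower on TPM). Over all tested unigenes 11.9% were called higher and 13.8% lower.

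The summed level of all members was lower after chilling. It came to 1283 and 1290 FPKM in the chilling libraries and 1619 and 1616 FPKM in the control libraries. The ratio of the means was 0.795, against 0.883 over all unigenes, and 0.901 on TPM. Much of the fall lay in 2 members described below, Ob_33671 and Ob_29438. Without Ob_29438, the most abundant member, the ratio on FPKM was 0.841, and the ratio without Ob_33671 was not computed. The groups did not overlap, but with 2 libraries each an exact two-sided permutation test cannot go below the p of 0.333 that it gave. The members held 0.166% and 0.167% of all FPKM after chilling and 0.185% in both controls. The number of members detected went the other way. At a level of at least 1 FPKM there were 117 in each chilling library, against 106 and 113 in the control libraries. Of the members, 16 reached 1 FPKM in both chilling libraries and in no control library, with 10 of them called, and 9 reached it only in both control libraries, all 9 called. Many members lie near this level, with a median mean FPKM of 2.90. The same counts over all unigenes are not given here, so no trait particular to the members can be read from them.

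The strongest responses of single members were drops within CYP71A. Ob_33671 matched CYP71A8 of peppermint and had 1.14 and 1.20 FPKM in the chilling libraries, against 109 and 104 FPKM in the control libraries. It was among the most abundant members in untreated leaves and was nearly gone after 12 h, 91.0-fold lower, with a log2 change of -5.63 ± 0.07 (SE) and an adjusted p of 2.0e-08 from limma. Ob_16298, similar to CYP71A6 of catmint, was listed at 0 in both chilling libraries, against 12.3 and 14.1 FPKM in the controls. Its log2 change of -3.83 held in every fit on 3 libraries. Ob_18997, matched to CYP71A1 of avocado, an enzyme first described from ripening fruit, had 0 and 0.32 FPKM after chilling and 12.4 and 14.3 FPKM in the control (log2 change -3.64). Its call was lost only without control replicate 2. Ob_24412, with the same best match, had 0.26 and 0.08 FPKM after chilling and 4.44 and 4.36 FPKM in the control. Its log2 change of -2.21 was still called without chilling replicate 1 but not without any other library (-2.32 to -2.10 over the 4 fits). Ob_21574, another CYP71A6 match, kept a measurable level, 11.5 and 11.8 FPKM after chilling and 40.9 and 39.8 FPKM in the control, a 3.46-fold difference that held in every fit.

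CYP71A and CYP71D, subfamilies of the same family, were set apart after their calls had been seen, so the contrast between them is a description with no test. Of 24 CYP71A members 21 were tested, and 11 were called lower (52.4%, against 13.8% of all tested unigenes) and 0 higher. The median log2 change of those tested was -1.33. The summed level of the 24 members was 83.5 and 84.9 FPKM after chilling and 297 and 295 FPKM in the control. All 4 called matches to CYP71A1 and all 4 called matches to CYP71A8 were lower, of 7 tested each. The nr descriptions of Ob_24412 and Ob_01837, counted here among the lower CYP71A1 matches, name CYP83 and CYP92 instead. The 10 CYP71A members that were not called had log2 changes between -0.71 (Ob_18966) and 0.64 (Ob_31348), and on TPM Ob_31348 was called higher, beside the same count of 11 lower. Of 14 CYP71D members 11 were tested, and 5 were called higher (45.45%, against 11.9% of all tested unigenes) and 0 lower. The median log2 change of those tested was 0.51. The 14 members summed to 63.5 and 64.7 FPKM after chilling and 43.2 and 49.9 FPKM in the control. A further 6 unigenes matched CYP71D55 but are no members, because Swiss-Prot names them by reaction as premnaspirodiene oxygenase. Of these 5 were tested, and 0 were called higher and 1 lower. Their log2 changes ran from -1.68 (Ob_06704, the one called) to 0.14 (Ob_26210). The member counts fell to between 5 and 7 lower for CYP71A and to 1 higher for CYP71D when any library was left out.

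The largest rise in CYP71D on the log2(FPKM + 1) scale was that of Ob_24932. It matched CYP71D7 of a wild potato, KEGG places it in sesquiterpenoid and triterpenoid biosynthesis, and it had 17.7 and 19.5 FPKM after chilling and 3.57 and 3.28 FPKM in the control. The 5.42-fold rise (log2 change 2.14 ± 0.10, adjusted p 6.5e-06 from limma) held whichever library was left out. The other 2 matches to CYP71D7, Ob_02530 and Ob_29062, were called higher as well, at chilling levels under 3 FPKM, and were lost without any 1 library. Ob_04776 matched CYP71D10 of soybean and had 3.20 and 3.51 FPKM after chilling and 0.35 and 0.52 FPKM in the control (log2 change 1.60). It was lost without any 1 library, with log2 changes of 1.52 to 1.69. The most abundant CYP71D member went the other way without being called, with 12.0 and 12.4 FPKM after chilling and 21.6 and 23.2 FPKM in the control for Ob_16011. In the third subfamily, CYP71B, Ob_24409, which nr places in CYP83, had 1.71 and 1.87 FPKM after chilling and 8.05 and 8.82 FPKM in the control. Its log2 change of -1.76 was called only with all 4 libraries, and ranged from -1.82 to -1.70 without one of them.

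**Figure D2:**
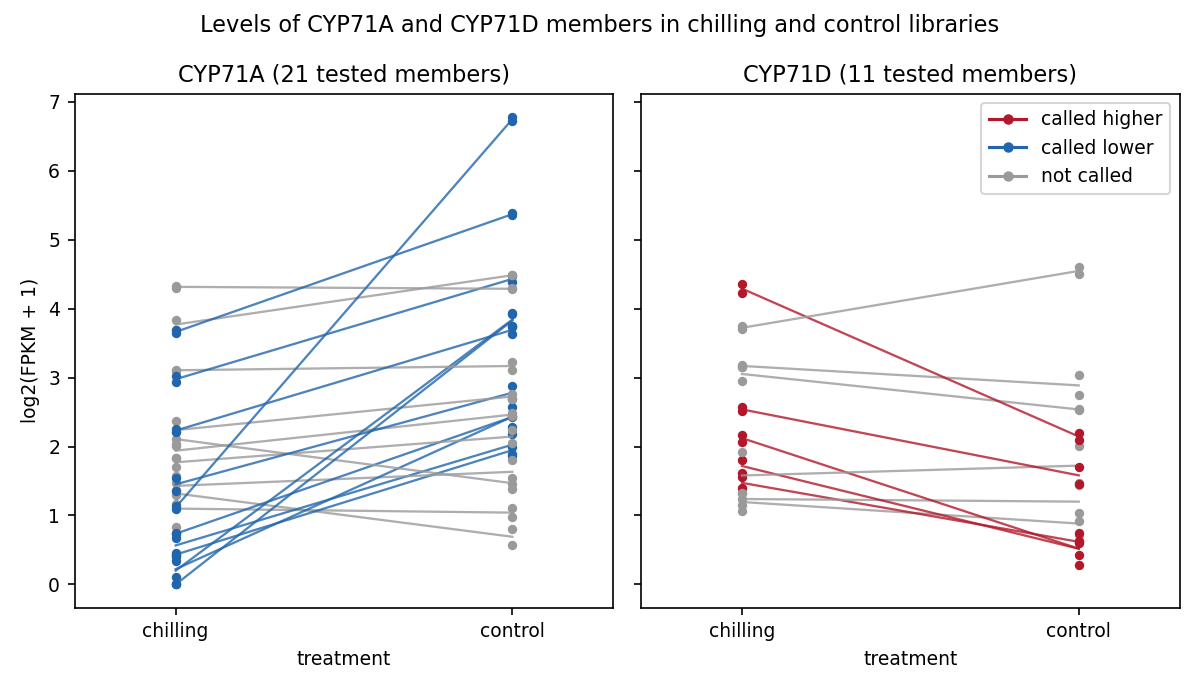
Level, as log2(FPKM + 1), of the 21 tested CYP71A members (left panel) and 11 tested CYP71D members (right panel) in chilling and control libraries; points are single libraries and lines join the means of the 2 libraries of each treatment. The 11 lines called lower all lie in the CYP71A panel and the 5 called higher all in the CYP71D panel. Matches to CYP71D55, which are no members, are not drawn.

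The largest rise was in CYP704, a family with 3 members. Ob_23853, similar to CYP704C1 of loblolly pine, had 37.6 and 39.3 FPKM after chilling, against 2.11 and 2.51 FPKM in the control. This 16.6-fold rise gave the largest positive log2 change, 3.58 ± 0.10 (SE), with an adjusted p of 4.6e-07 from limma. CYP704 belongs to the 86 clan, whose best known enzymes hydroxylate fatty acids. The other 2 members of the family were not called, and Ob_06189, matched to the Arabidopsis enzyme CYP704B1 that makes precursors of the pollen wall polymer sporopollenin, had 2.07 and 2.47 FPKM after chilling and 2.04 and 2.42 FPKM in the control.

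CYP76 moved in both directions. This family includes enzymes that oxidise monoterpenols such as geraniol and linalool in several plants. Ob_25617, which matched CYP76A1 of eggplant, had 14.8 and 15.2 FPKM after chilling and 0.47 and 0.31 FPKM in the control. Its log2 change of 3.52 held in every fit on 3 libraries. Ob_33850, matched to CYP76A2, had 5.26 and 4.08 FPKM after chilling and was listed at 0 in both controls. Its call was lost without control replicate 1 and without control replicate 2, with a log2 change of 2.50 in both. By contrast Ob_31295, also a CYP76A1 match, had 7.41 and 6.81 FPKM after chilling and 20.6 and 20.1 FPKM in the control, and its call was lost only without control replicate 1 (log2 changes of -1.45 to -1.34 over the 4 fits). The member of the family with the highest level was Ob_23692, matched to CYP76C1, a linalool oxidase of Arabidopsis flowers. It had 23.8 and 21.7 FPKM after chilling and 54.5 and 53.3 FPKM in the control, a 2.37-fold drop that held in every fit. The nr description of Ob_23692 names another family, CYP93. The family summed to 56.3 and 52.0 FPKM after chilling and 79.9 and 78.6 FPKM in the control.

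**Figure D3:**
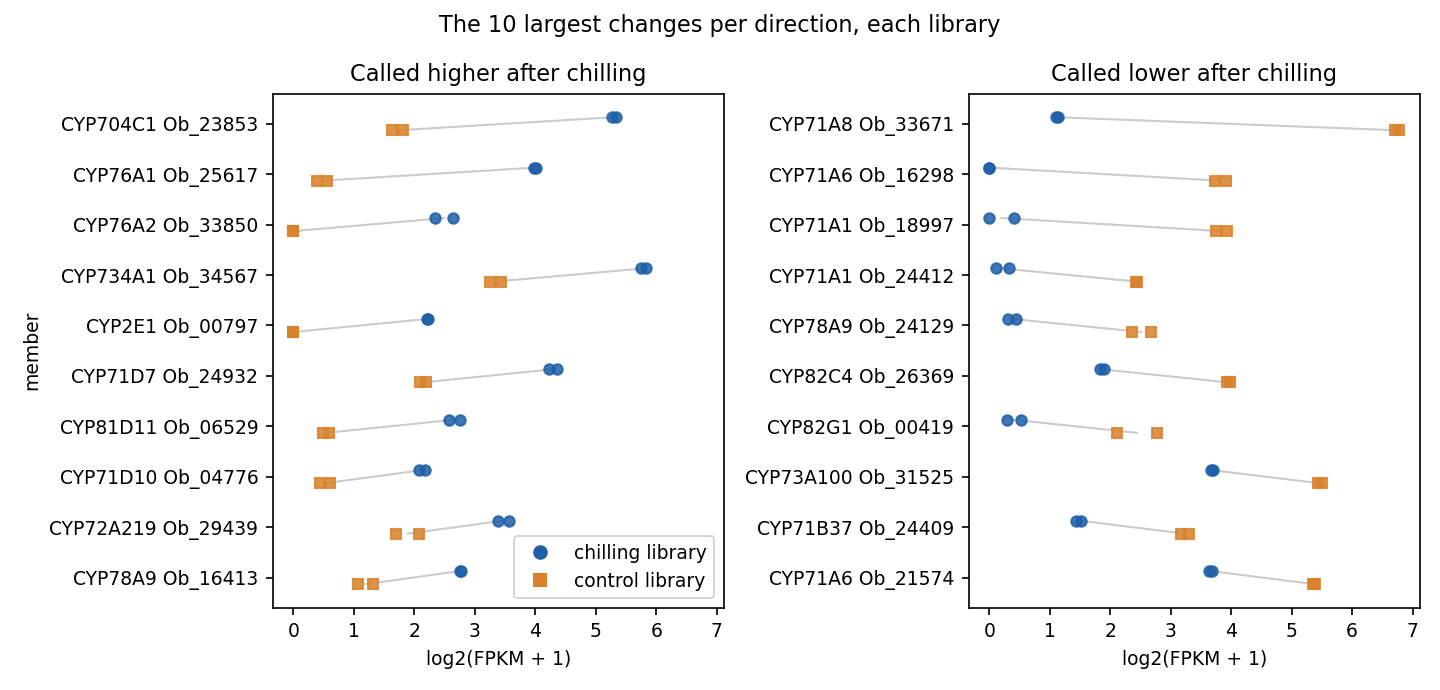
Level, as log2(FPKM + 1), in each of the 4 libraries for the 10 members with the largest log2 change among those called higher (left) and lower (right); lines join the means of the 2 treatments. No chilling library overlaps a control library in any of these members, which were picked for their large changes. Groups did not overlap in 81.99% of all tested unigenes either. Ob_33671 has the widest gap.

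Among members with matches in brassinosteroid metabolism, one for an inactivating enzyme rose and those for synthesis were not called. Brassinosteroids are growth hormones of plants. Ob_34567 matched CYP734A1 of Arabidopsis, which hydroxylates these hormones and so inactivates them. It had 56.1 and 52.5 FPKM after chilling and 8.48 and 9.82 FPKM in the control. The 5.93-fold rise made it one of the most abundant members in chilled leaves (log2 change 2.45 ± 0.08, adjusted p 1.1e-06 from limma), and it held in every fit on 3 libraries. A second CYP734A1 match, Ob_22828, had 2.66 and 1.5 FPKM after chilling and 3.09 and 2.39 FPKM in the control and was not called. Of the 9 members that KEGG places in brassinosteroid biosynthesis, all were tested, 2 were called higher and 0 lower (11.9% and 13.8% of all tested unigenes). The other was Ob_11400, whose Swiss-Prot match is CYP749A22 while its nr match is a CYP734A1-like protein, with 3.06 and 3.01 FPKM after chilling and 0.57 and 0.84 FPKM in the control. Ob_11400 was no longer called without any 1 library (log2 changes of 1.13 to 1.36). One of the 9, Ob_34291, has CYP98A2 as its Swiss-Prot match.

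The biosynthetic side was carried by matches to CYP90A1, CYP724B1 and CYP85A1, which work at different oxidation steps towards castasterone and brassinolide. The 3 CYP90A1 members had log2 changes of -0.55, -0.33 and 0.33. Ob_31173, the most abundant CYP724B1 match (the rice gene is DWARF11), had 7.37 and 7.87 FPKM after chilling and 13.9 and 12.0 FPKM in the control, an adjusted p of 0.00137 from limma but less than a 2-fold difference. Ob_29068, matched to CYP85A1, had 15.8 and 14.4 FPKM after chilling and 17.3 and 16 FPKM in the control, close but not overlapping (log2 change -0.13). None of these 7 members was called.

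Members matched to enzymes of strigolactone, gibberellin or jasmonate metabolism had 2 calls, both higher and both at low levels. Ob_13724 matched CYP711A1, known as MAX1, which acts in strigolactone biosynthesis in Arabidopsis, and had 3.69 and 3.55 FPKM after chilling and 0.84 and 0.64 FPKM in the control. Its log2 change of 1.41 was called with all 4 libraries but with none left out (1.33 to 1.49). In CYP714, whose Arabidopsis and rice members oxidise gibberellins or their precursors, 1 of 6 was called higher. That was Ob_22535, with 6.34 and 7.25 FPKM after chilling and 2.01 and 2.52 FPKM in the control, and this call too needed all 4 libraries (1.15 to 1.37 without one). The most abundant CYP714 member, Ob_25330, had 37.1 and 38.4 FPKM after chilling and 43.8 and 41.1 FPKM in the control and was not called. Ob_15449, the tested match to CYP94B3, which oxidises the jasmonate hormone jasmonoyl-isoleucine in Arabidopsis, had 1.40 and 1.78 FPKM after chilling and 1.68 and 3.10 FPKM in the control, with overlapping groups.

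Among the members that KEGG places in phenylpropanoid biosynthesis 1 was called, and it was lower. Ob_31525 matched CYP73A100 of ginseng, a cinnamate 4-hydroxylase, the enzyme of the second step of the general phenylpropanoid pathway. It had 12.0 and 11.7 FPKM after chilling and 42.3 and 44.2 FPKM in the control. The 3.65-fold drop (log2 change -1.78 ± 0.06, adjusted p 9.8e-07 from limma) held in every fit. The more abundant unigene for this step was Ob_32104. It is no member because Swiss-Prot names it by its reaction as trans-cinnamate 4-monooxygenase. Ob_32104 had 148 and 146 FPKM after chilling and 152 and 153 FPKM in the control and was not called (log2 change -0.05). CYP98 enzymes hydroxylate the ring of p-coumaroyl esters on the way to lignin and, in the mint family, rosmarinic acid. The most abundant CYP98A2 match, Ob_22221, had 43.9 and 43.2 FPKM after chilling and 69.6 and 68.2 FPKM in the control, less than a 2-fold difference (adjusted p 1.2e-05 from limma). None of the 5 tested CYP98 members was called, with log2 changes from -0.65 to 0.77. Ob_22478, similar to CYP84A1, the ferulate 5-hydroxylase that leads to syringyl lignin, had 4.55 and 4.41 FPKM after chilling and 7.82 and 8.45 FPKM in the control and was not called. KEGG places 9 members in phenylpropanoid biosynthesis, of which 7 were tested, 1 was called lower and 0 higher. With 7 tested, this count cannot be set apart from the shares over all tested unigenes, 13.8% lower and 11.9% higher.

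In CYP82 every call was a drop, on FPKM and on TPM. Of 7 tested members 4 were called lower (57.1%, against 13.8% of all tested unigenes) and 0 higher. The family summed to 60.2 and 60.9 FPKM after chilling and 101 and 102 FPKM in the control. Ob_26369, matched to CYP82C4, which in Arabidopsis makes the iron-mobilising coumarin sideretin, had 2.71 and 2.54 FPKM after chilling and 14.2 and 14.9 FPKM in the control. Its log2 change of -2.10 held in every fit on 3 libraries, as did that of -1.26 for Ob_23498, matched to CYP82C3. Both matches to CYP82G1, the Arabidopsis enzyme that makes volatile homoterpenes, were called lower. Ob_00419 had 0.22 and 0.44 FPKM after chilling and 3.31 and 5.85 FPKM in the control, and Ob_00418 had 1.21 and 0.95 FPKM after chilling and 3.80 and 3.73 FPKM in the control. These low-level calls were lost without any 1 library (log2 changes of -2.37 to -1.70 and -1.29 to -1.11). The most abundant member of the family, Ob_31950, had 32.4 and 31.5 FPKM after chilling and 33.8 and 36.0 FPKM in the control and was not called.

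CYP81 leaned the other way. All 10 members were tested, and 5 were called higher (50%, against 11.9% of all tested unigenes) and 1 lower (10%, against 13.8%). On TPM the counts were 5 and 0. The family summed to 174 and 172 FPKM after chilling and 148 and 146 FPKM in the control. Ob_06529 matched CYP81D11, which responds to xenobiotics and jasmonate in Arabidopsis. It had 4.92 and 5.76 FPKM after chilling and 0.50 and 0.40 FPKM in the control, and its log2 change of 2.13 was lost without control replicate 1 and without control replicate 2 (2.03 to 2.22 over the fits). Its numerical neighbour Ob_06528, with the same best match, was also called higher, at 2.63 and 3.70 FPKM after chilling and 0.37 and 1.09 FPKM in the control. The call of Ob_06528 needed all 4 libraries (0.98 to 1.59 without one). The most abundant of the family, Ob_19095, had 66.1 and 64.9 FPKM after chilling and 48.6 and 50.4 FPKM in the control, separate but less than 2-fold apart. The single drop, Ob_27318 with 8.74 and 8.04 FPKM after chilling and 16.9 and 18.6 FPKM in the control, was lost on TPM and without any 1 library (-1.06 to -0.93). The number called higher in CYP81 fell to 1 without chilling replicate 1, chilling replicate 2 or control replicate 1 and to 0 without control replicate 2.

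The CYP72A219-like members, named after a ginseng enzyme, held the most abundant member in both treatments and disagreed among themselves. CYP72 as a family includes secologanin synthase and oxidases of triterpenes in other plants. Of its 21 members 15 were tested, all with CYP72A219 as best match. On FPKM 2 were called higher (13.3%, against 11.9% of all tested unigenes) and 3 lower (20%, against 13.8%). On TPM 4 were called higher and 0 lower. Ob_29438 had 101 and 106 FPKM after chilling and 211 FPKM in both controls. This 2.04-fold drop sat at the threshold. It was lost without chilling replicate 1 (log2 changes of -1.05 to -0.99 over the fits) and on TPM. Ob_29440 had 8.86 and 10.5 FPKM after chilling and 19.1 and 19.9 FPKM in the control, was likewise lost on TPM, and held only without chilling replicate 2. Between them in number, Ob_29439 had 9.45 and 10.8 FPKM after chilling and 2.26 and 3.21 FPKM in the control and was called higher (log2 change 1.58). That call was lost without any 1 library, with log2 changes of 1.40 to 1.77, as was that of Ob_09664, with 4.01 and 4.65 FPKM after chilling and 1.16 and 0.91 FPKM in the control (1.3 to 1.48).

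The opposite changes of Ob_29438 and Ob_29439 are one of 14 cases in which members with consecutive numbers share a best match. In 4 of the 14 both were called, and 2 of those went in the same direction. Unigenes of this kind may be close copies or pieces of 1 transcript, and how reads shared between them were divided cannot be seen in FPKM. Across the superfamily 120 members share their Swiss-Prot accession with another member, so that 60 accessions cover all 147. Another abundant member, Ob_28672, had 62.9 and 64.4 FPKM after chilling and 41.1 and 40.9 FPKM in the control. It was one of 19 members that passed the adjusted p without a 2-fold difference. Over all 33036 tested unigenes, 15825 passed the adjusted p and 8465 of these were called.

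**Figure D4:**
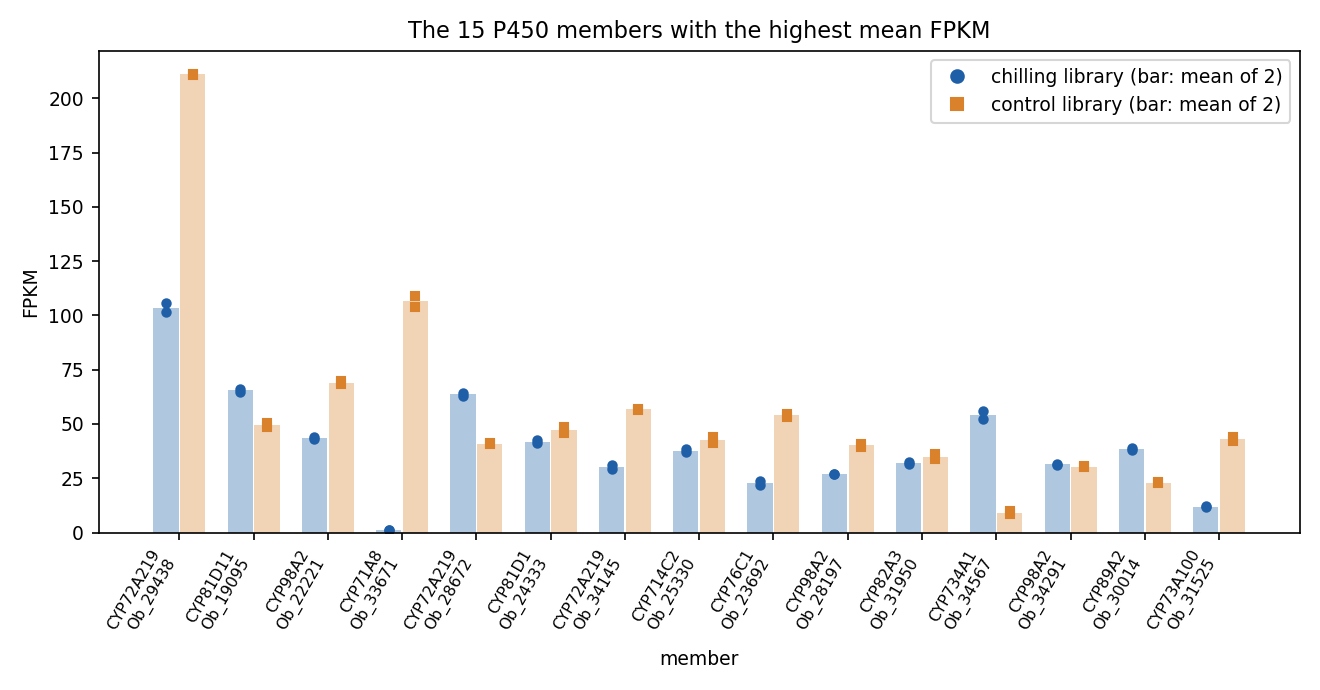
FPKM of the 15 members with the highest mean level, with bars for the mean of 2 libraries and points for single libraries, chilling left of control for each member. Ob_29438 is the highest in both treatments, Ob_33671 stands above 100 FPKM in the control alone, and Ob_34567 is above 50 FPKM after chilling alone.

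CYP78A9, which promotes the growth of reproductive organs in Arabidopsis, had a match called in each direction. Ob_16413 had 5.72 and 5.83 FPKM after chilling and 1.5 and 1.11 FPKM in the control. Ob_24129 had 0.36 and 0.24 FPKM after chilling and 5.38 and 4.11 FPKM in the control. The rise was lost without any 1 library (log2 changes of 1.44 to 1.68), and the drop without either chilling replicate (-2.30 to -1.98 over the fits). Several members were picked for mention after their values were seen. Both tested CYP749A22 matches were called higher, both CYP83B1 matches were called lower, and of the matches to CYP87A3, CYP720B2 and CYP93A3 one was called each, lower for CYP87A3 and higher for the other 2. None of these 7 calls held in more than 1 of the fits on 3 libraries. At fatty acid oxidation, CYP94 had 1 of 4 tested members called, Ob_17004 with 2.35 and 2.20 FPKM after chilling and 5.33 and 4.67 FPKM in the control. That drop was lost on TPM and without any 1 library (-0.95 to -0.79), and the most abundant CYP94 member, Ob_27917, had 6.62 and 5.86 FPKM after chilling and 3.16 and 3.5 FPKM in the control and was called higher on TPM only.

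Ob_00797 had a human enzyme, CYP2E1, as its best Swiss-Prot match, at an expectation value of 5e-09, and an unnamed grapevine protein as its nr match. It had 3.70 and 3.65 FPKM after chilling and was listed at 0 in both controls, and the call (log2 change 2.23) held in every fit on 3 libraries. For the members in general, 103 matched at an expectation value of 1e-50 or less, and the nr description named a P450 for 98. Where the nr description named a family, it was the same family in 45 of 56 members.

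For the proteins that feed electrons to P450s, the calls on FPKM were drops, at a share near that of all unigenes. Of 28 unigenes annotated as P450 reductase, cytochrome b5 or cytochrome b5 reductase, 24 were tested, 0 were called higher and 3 lower (12.5%, against 13.8% of all tested unigenes called lower and 25.6% in either direction), with a median log2 change of -0.40. On TPM 2 were called higher and 1 lower. They summed to 1010 and 996 FPKM after chilling and 1341 and 1330 FPKM in the control. The strongest drop at a high level was that of a cytochrome b5, Ob_19876, with 49.4 and 45.2 FPKM after chilling and 142 FPKM in both controls (log2 change -1.56 ± 0.05, adjusted p 6.1e-07 from limma), and it held in every fit. The most abundant cytochrome b5, Ob_15156, had 196 and 205 FPKM after chilling and 278 and 270 FPKM in the control and was not called. A reductase unigene, Ob_36245, had 8.07 and 6.88 FPKM after chilling and 16.5 and 14.97 FPKM in the control and was called lower. Its numerical neighbour Ob_36246, with the same best match, had 47.9 and 52.5 FPKM after chilling and 27.7 and 24.7 FPKM in the control, short of 2-fold. The low cytochrome b5 Ob_41818 had 0.34 and 0.83 FPKM after chilling and 2.64 and 2.11 FPKM in the control, and its call, like that of Ob_36245, was lost without any 1 library, which left 1 call in the list.

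P450s whose Swiss-Prot description gives the reaction or a left-out family, and which are therefore no members, numbered 83. Of the 71 tested, 11 were called higher (15.5%, against 11.9% of all unigenes) and 17 lower (23.9%, against 13.8%), and on TPM 13 and 12. Their summed level was 1233 and 1243 FPKM after chilling and 1120 and 1121 FPKM in the control. Of the 8 unigenes for abscisic acid 8'-hydroxylase, which inactivates that hormone, 3 were called higher and 3 lower. Of 4 for allene oxide synthase, the entry to jasmonate synthesis, 2 were called higher and 0 lower, and of 11 for beta-amyrin 28-oxidase, which makes triterpene acids, 3 were higher and 0 lower. The counts in the whole list were 5 to 9 higher and 8 to 9 lower when any library was left out.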

How the data were processed

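RNA-seq of leaves gave 4 libraries, 2 per treatment. Trimmed reads of all libraries were assembled by the authors with Trinity, the longest isoform stood for each unigene, and the deposited values are FPKM from RSEM, rounded to 2 decimals. Annotation came from the authors' BLASTX searches (expectation value 1e-05). Deposited lists of changed genes, with edgeR fold changes, p-values and FDR, were not used, nor were 8 sample columns that repeat FPKM there. Labels and article differ on growth temperature, time on agar and RNA kit.

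Differences were tested with limma (version 3.58.1, R 4.3.3), applied to log2(FPKM + 1) with a trended prior, for the 33036 unigenes averaging 1 FPKM or more, with Benjamini-Hochberg adjustment over all of them. The fit had 2 residual degrees of freedom and a prior of 4.41. Calls needed adjusted p ≤ 0.01 and a 2-fold ratio of mean FPKM, the thresholds of the study. Count models were not run on FPKM, and the number of reads behind a value is not given, so no counting interval is printed. The procedure was tested on simulated data. Python 3.11.15 was used with SciPy 1.17.1, numpy 2.4.6, pandas 2.3.3 and, for figures, matplotlib 3.10.9.

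Members and lists were chosen with earlier results of these data known. Members were named by rule: the 10 called in each direction with the largest log2 changes, the 5 with the highest mean FPKM, in each family of at least 5 members up to 2 called per direction and the most abundant one, the unigene with primers, and the called and the most abundant redox partners; other members named were chosen after their values were seen. A CYP name is that of the closest Swiss-Prot protein, from another species. From the list of P450s named by reaction, 21 cyclophilins, whose gene names also begin with CYP, were removed after the data had been seen, as was a succinate dehydrogenase subunit from the redox list. Alternatives were a pseudocount of 0.1, no filter, a mean FPKM of at least 5, TPM and median-ratio rescaling, a replicate block, no trend, a fold on the log scale, an adjusted p of 0.05, leaving out each library, and narrower member lists.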

Additional observations from a re-analysis of the deposited data

How the results depend on the processing

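Leaving out 1 library lowered the counts of calls, whichever it was, and all unigenes fell likewise (1242 to 1575 higher and 1586 to 1686 lower, against 3917 and 4548). Without any 1 library, members called higher numbered 5 to 7 (24 with all) and lower 12 to 13 (28 with all), P450s named by reaction 5 to 9 higher (11) and 8 to 9 lower (17), redox partners 1 (3), CYP71A 5 to 7 lower (11) and CYP71D 1 higher (5). A mean FPKM of at least 5, which tests fewer unigenes, gave 8 higher and 16 lower members, 11 lower P450s named by reaction, 6 lower CYP71A and 1 higher CYP71D. CYP71D also had 3 higher with no filter and 3 with the fold taken on the log2(FPKM + 1) scale; the cause was not tested. Keeping the 98 members whose nr description names a P450 gave 14 higher, and keeping 1 unigene for each of 60 accessions gave 11 higher and 13 lower; both lists are shorter by construction. Replicate numbers in the labels name no shared plant or day. Over the tested unigenes, the difference of replicate 1 from replicate 2 in chilling correlated at 0.008 with that in the control. With the replicate block, 21 members were called higher and 27 lower, and CYP71D had 3 higher. The ratio of summed FPKM, 0.795, was 0.901 on TPM, 0.802 with median-ratio scaling and 0.841 without the most abundant member. Over all unigenes this ratio was 0.883 on FPKM and, by construction, 1 on TPM. No setting left out Ob_33671. TPM turned the balance of several lists: members had 29 higher and 22 lower, with a median log2 change of 0.04 in place of -0.12, CYP72 had 4 and 0 in place of 2 and 3, CYP94 1 and 0 in place of 0 and 1, and redox partners 2 and 1 in place of 0 and 3. No named member called on FPKM was called in the opposite direction under another setting. Adding the cyclophilins back, an alternative chosen after seeing the data, gave 11 higher and 19 lower. The number of reads behind low values is unknown.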
